A study of Mus musculus with 27 samples.

Results

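The genes described here are the protein components of the cytosolic ribosome and protein-coding copies that resemble them. They are the 91 rows, of 43346 in the count table, that GENCODE M21 annotates as protein-coding with an Rps, Rpl, Rplp or Rpsa symbol, without the Rps6k kinases and Rps19bp1. By their symbols 77 were parent genes, the conventional multi-exon genes, with 31 for the small subunit, 43 for the large subunit and 3 for the acidic stalk (Rplp0, Rplp1 and Rplp2). Another 7 were paralogs, related genes with a symbol of their own such as Rpl22l1, and 7 were classed as retrocopies, although the annotation calls them protein-coding. Of these 7 retrocopies 6 had a single exon, and Rpl36-ps4 had 3 exons and 82.72% identity to Rpl36. The table also held 1179 further rows, annotated as pseudogenes of the processed or unprocessed kind, whose sequence matched a parent transcript over at least 50% of their length at 80% identity or more, and each of the 77 parents had at least 1 such copy.

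Poly(A)-selected RNA was sequenced from liver cells labelled hepatocytes, taken from 12-week-old female mice of 9 inbred strains with 3 libraries each. The strains were 129S1/SvImJ, A/J, C57BL/6J, CAST/EiJ, DBA/2J, NOD/ShiLtJ, NZO/HlLtJ, PWK/PhJ and WSB/EiJ. The labels name no treatment and no control strain. The labels call the libraries biological replicates and do not say whether animals were pooled. Library totals ran from 17015956 to 35078511 estimated counts, and after TMM scaling 1 count was worth 0.0253 to 0.0516 CPM, the library-scaled unit used throughout. The 10 hepatocyte markers summed to between 110464 and 330050 CPM in a library, the 11 Kupffer cell markers to between 35.8 and 450 CPM and the 10 endothelial markers to between 65.2 and 826 CPM. None of these 31 markers was at 0 in all libraries, and fewer cells of a type cannot be told apart from less RNA per cell in such bulk samples.

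A cytosolic ribosome joins a small subunit, which reads the messenger RNA, to a large subunit, which forms the peptide bonds, and each contains 1 copy of most of its proteins. Their messenger RNAs are short, abundant and start with a run of pyrimidines through which growth signals control translation. Such RNAs are often reverse transcribed and inserted into the genome, and the mouse genome therefore carries many intronless copies, most of them without function, that can be almost identical to the parent.

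To show how alike parents and copies are, stretches of 60 coding bases are shown, 5′ to 3′, from GENCODE M21 transcripts (GRCm38). Positions are counted from the first base of the start codon of the parent transcript used, and capitals mark bases at which a copy and the parent differ. Rpl9 (chromosome 5, 65388364 to 65391444, minus strand) and the retrocopy Rpl9-ps6 (chromosome 19, 32465865 to 32466578, minus strand, 1 exon) differed at 1 of 576 coding bases, G266A:
Rpl9: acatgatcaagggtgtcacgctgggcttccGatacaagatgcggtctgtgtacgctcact
Rpl9-ps6: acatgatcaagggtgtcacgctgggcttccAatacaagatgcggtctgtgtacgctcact
Rps13 (chromosome 7, 116331505 to 116334195, minus strand) differed from Rps13-ps1 (chromosome 8, 87047689 to 87048226, plus strand) by T411C and A429G and from Rps13-ps2 (chromosome 7, 88530446 to 88530898, minus strand) at none of 453 coding bases:
Rps13: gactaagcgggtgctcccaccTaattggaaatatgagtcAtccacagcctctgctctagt
Rps13-ps1: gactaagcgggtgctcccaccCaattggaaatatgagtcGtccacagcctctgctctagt
Rps13-ps2: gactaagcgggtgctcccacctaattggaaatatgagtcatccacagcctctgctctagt
Rps2 (chromosome 17, 24718116 to 24721929, plus strand) differed by 7 substitutions from Rps2-ps13 (chromosome X, 52898588 to 52899469, plus strand) over 882 aligned bases and by 9 from Gm6311 (chromosome 13, 75954136 to 75955013, plus strand) over 878. Of these, T60A occurs in both copies, A84G in Rps2-ps13, and G79A and G80C in Gm6311:
Rps2: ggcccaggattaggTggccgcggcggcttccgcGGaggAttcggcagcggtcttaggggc
Rps2-ps13: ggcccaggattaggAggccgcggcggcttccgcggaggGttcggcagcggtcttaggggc
Gm6311: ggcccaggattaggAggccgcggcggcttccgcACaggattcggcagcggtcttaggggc
Rps3a1 (chromosome 3, 86137940 to 86142702, minus strand) differed by 4 of 792 bases from Rps3a2 (chromosome 14, 88123017 to 88123808, minus strand), including A645T and T668C, and by 9 from Rps3a3 (chromosome 13, 108670603 to 108671397, plus strand):
Rps3a1: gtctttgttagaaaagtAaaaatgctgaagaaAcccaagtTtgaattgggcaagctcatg
Rps3a2: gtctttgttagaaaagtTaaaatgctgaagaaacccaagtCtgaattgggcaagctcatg
Rps3a3: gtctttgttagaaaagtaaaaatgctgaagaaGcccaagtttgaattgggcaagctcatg
Rpl29 (chromosome 9, 106429454 to 106431568, plus strand) differed by 3 of 480 bases from Gm13841 (chromosome 5, 115801677 to 115802159, minus strand), including T423C, and by 3 from Gm6344 (chromosome 13, 55085777 to 55086259, plus strand), which has T423C and G454A in this stretch:
Rpl29: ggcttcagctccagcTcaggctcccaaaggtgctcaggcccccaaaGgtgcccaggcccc
Gm13841: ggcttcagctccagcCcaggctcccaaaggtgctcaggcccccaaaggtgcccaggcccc
Gm6344: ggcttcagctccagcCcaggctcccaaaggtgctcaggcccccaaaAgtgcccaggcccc

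The coding sequence of Rps27 (chromosome 3, 90212522 to 90213651, minus strand, 252 coding bases) was the same as that of the single-exon retrocopy Rps27rt (chromosome 9, 114982366 to 114982739, minus strand). Their RefSeq start windows (GRCm38.p6) also shared 30 bases, shown here with the CTTTC of the pyrimidine-rich start in capitals, at chromosome 3, 90213618 to 90213647 for Rps27 and at chromosome 9, 114982710 to 114982739 for Rps27rt:
Rps27: CTTTCcggcggtgacgacctccctacgaga
Rps27rt: CTTTCcggcggtgacgacctccctacgaga
Of the 77 parents 57 had a start window in that table. CTTTC or CTTTT, read on the gene's own strand, lay within 20 bases either side of an annotated start in 22 of these 57 genes (38.6%), against 10.9% of all genes in the table. The TATAAA motif in the 50 bases before the start occurred in 0 of the 57 and in 3.15% of all genes. These are matches of letters in a window and say nothing of binding.

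Counts of the members were often fractional. A deposited value was more than 0.01 away from a whole number in at least 1 library for 78 of the 91 members and in all 27 libraries for 27 of them. Of the 76 parents tested, 34.2% were not whole in all 27 libraries, against 7.17% of all 14482 genes tested. Sets of rows with the same value in all 27 libraries, compared to 2 decimals, also occurred: Gm13841 and Gm8210 (copies of Rpl29), Gm10240 and Gm13370 (copies of Rpl21), and a set of 4 copies of Rpl35a.

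Of the 91 members 84 passed the filter on low counts. Adjusted p-values below come from edgeR's quasi-likelihood test with Benjamini-Hochberg adjustment over all 14482 genes tested, and a gene was called under 0.05. For a difference among the 9 strains, 75 of the 76 parents tested were called, beside 74.2% of all genes tested, together with the 4 paralogs tested and, of the retrocopies, Rps27rt, Rpl10-ps3 and Rps12-ps3. Rpl9-ps6 had 3 or fewer counts in 21 libraries and passed the filter only through PWK/PhJ, where it was high, so its values are given below as a description. The exception was Rps21 of the small subunit (adjusted p = 0.15 in the same edgeR test). The median range of the parents' strain means, on the scale of log2(CPM + 0.5), was 1.03, beside 0.94 over all genes tested. It was 1.11 for the 30 small subunit genes tested, 1.04 for the 43 large subunit genes and 0.98 for the 3 stalk genes. That median hides 19 parents, 6 of the small and 13 of the large subunit, whose strain means spanned more than 4-fold.

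The parent with the largest range was Rps2, a protein of the messenger RNA entry site of the small subunit. Rps2 was at 3.81, 4.89 and 3.76 CPM in CAST/EiJ and at 4.68, 3.43 and 4.51 CPM in WSB/EiJ. The 21 libraries of the remaining strains spanned 127 CPM (A/J) to 383 CPM (NZO/HlLtJ), so that neither strain overlapped any of them. Against the mean of the other 8 strains, the log2 difference was -5.11 ± 0.19 (SE) in CAST/EiJ (edgeR adjusted p = 1.02e-16) and -5.10 ± 0.19 in WSB/EiJ (edgeR adjusted p = 2.60e-16). The X-linked copy Rps2-ps13 had the mirror image of this pattern. It was at 322, 339 and 277 CPM in CAST/EiJ and at 217, 150.1 and 238 CPM in WSB/EiJ, and at most 1.11 CPM in every other library. A different copy, Gm6311, was at 31.4 to 94.6 CPM in NZO/HlLtJ, NOD/ShiLtJ, DBA/2J, A/J and 129S1/SvImJ, and at most 0.126 CPM in the remaining 4 strains. Summed with its 72 copies, Rps2 ran from 211 ± 36.2 CPM (SD, n = 3) in A/J to 482 ± 21.3 CPM in NZO/HlLtJ, and CAST/EiJ was at 372 ± 31.3 CPM. The range fell from 6.29 to 1.20 on the log2 scale.

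Rpl29, a small basic protein of the large subunit, was also lowest in CAST/EiJ, at 0.502, 1.06 and 0.412 CPM. It was at 73.8, 50.2 and 43.1 CPM in C57BL/6J and at 60.5, 73.6 and 78.4 CPM in PWK/PhJ, and between 8.79 and 20.4 CPM in the libraries of the other 6 strains. These 3 levels did not overlap. In CAST/EiJ the copies Gm10709 (51.9 to 59.6 CPM) and Gm6344 (42.9 to 62.3 CPM) held 50.2% and 48.3% of the family's counts. In the 6 intermediate strains Gm13841 and Gm8210, each at 12.6 to 30.3 CPM, held 33% to 35.9% each, and Rpl29 itself 23.2% to 27.3%. The log2 range over strains was 5.98 for Rpl29 alone and 1.31 for the sum over its 62 copies and itself.

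Rps13, which sits at the platform of the small subunit, was at 1.12, 0.63 and 0.293 CPM in 129S1/SvImJ and at 1.42, 2.66 and 1.44 CPM in CAST/EiJ, against 17.2 to 36.4 CPM in the other 21 libraries. Rps13-ps1 was at 47.7 to 57.2 CPM in the same 6 libraries and at most 2.71 CPM elsewhere. Rps13-ps2, whose coding sequence equals that of the parent, was at 4.79 to 25.8 CPM in the 7 strains with Rps13 counts and at most 0.0572 CPM in 129S1/SvImJ and CAST/EiJ. In 7 strains the counts thus lay on the parent and the copy of equal coding sequence, and in 129S1/SvImJ and CAST/EiJ on the copy with T411C and A429G. The log2 range fell from 4.99 to 0.82 on summing.

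Rpl9, a protein near the base of the stalk, and its retrocopy Rpl9-ps6 exchanged places in 1 strain. Rpl9 was at 3.63, 3.37 and 3.72 CPM in PWK/PhJ and between 59 and 125 CPM in the 24 libraries of the other strains (log2 difference -4.67 ± 0.16 SE, edgeR adjusted p = 4.92e-17). Rpl9-ps6 was at 54.4, 71 and 70.5 CPM in PWK/PhJ, at 0.608 CPM in 1 A/J library, at 0.296 and 0.223 CPM in 2 DBA/2J libraries and at 0 in the other 21 libraries. It took 94.7% ± 0.892 (SD, n = 3) of the counts of the pair in PWK/PhJ. Rpl9-ps4, with 1 other substitution (C237T), was at 16.9, 18.5 and 23.2 CPM in PWK/PhJ and at most 0.609 CPM elsewhere. With all 32 copies summed, PWK/PhJ was at 88.7 ± 11.7 CPM, inside the 72.8 to 119.6 CPM that the other strains' means spanned.

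PWK/PhJ had the opposite pattern for Rpl27, a large subunit protein. Rpl27 was at 41.2, 60.1 and 62.3 CPM there and between 1.68 and 5.5 CPM in the other 24 libraries, while the copy Rpl27-ps3 was at 0, 0.619 and 0.531 CPM there and between 27.8 and 65.9 CPM elsewhere. In 8 of 9 strains the parent's row therefore held the smaller part, down to 5.56% of the family's counts in 129S1/SvImJ. The sum ran from 37.5 ± 5.62 CPM in A/J to 69.3 ± 4.35 CPM in CAST/EiJ.

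Rps3a1, a small subunit protein near the messenger RNA exit, showed 3 states. It held nearly all the family's counts in C57BL/6J, NOD/ShiLtJ, NZO/HlLtJ and PWK/PhJ, at 80 to 179 CPM in a library. It shared them with Rps3a2 in CAST/EiJ (68.9 to 78.2 CPM, with Rps3a2 at 116 to 126 CPM) and DBA/2J (67.3 to 91.5 CPM, with Rps3a2 at 28.5 to 45 CPM). It was at 12 to 23.4 CPM in 129S1/SvImJ, A/J and WSB/EiJ, where Rps3a2 was at 38.6 to 87.9 CPM and Rps3a3 at 23.8 to 63.3 CPM. In the 6 other strains Rps3a3 was at most 0.464 CPM. Rpl7a was low in CAST/EiJ, at 17, 22.7 and 16.7 CPM against 98.5 to 212 CPM in the other 24 libraries. There its copies Gm5619 (62.7 ± 4.57 CPM), Gm16477 (53.4 ± 2.66), Gm8226 (37.5 ± 3.47) and Rpl7a-ps11 (18.7 ± 2.22) were counted (SD, n = 3).

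**Figure D1:**
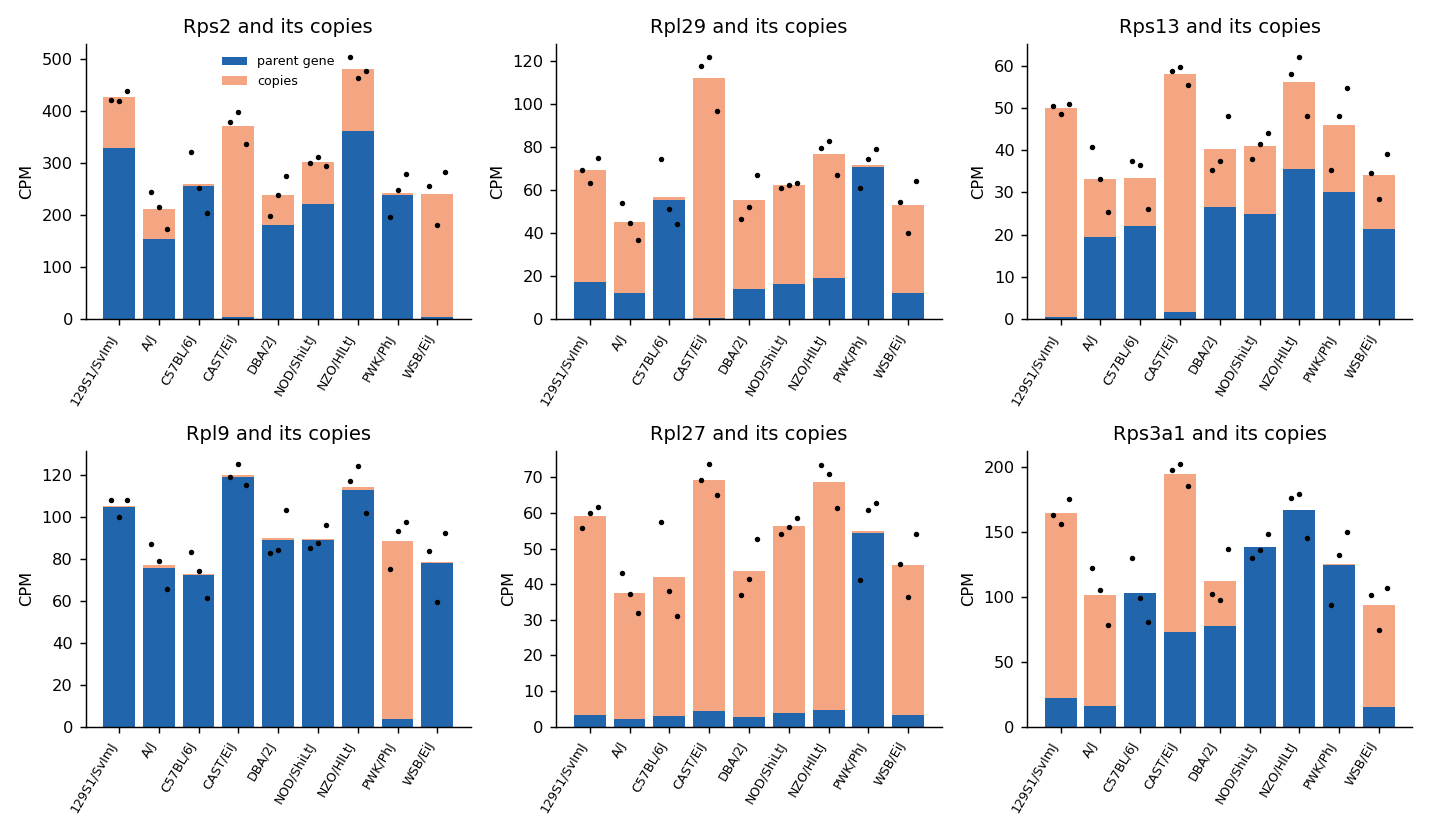
Stacked bars give the mean CPM per strain (n = 3) of a parent gene (blue) and of all its copies assigned by sequence (orange) for 6 families, and black points give the sum in each library. The blue part drops to near 0 in CAST/EiJ and WSB/EiJ for Rps2 and in PWK/PhJ for Rpl9, while the summed height stays between 211 and 482 CPM for Rps2 and between 72.8 and 119.6 CPM for Rpl9.

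Rpl35, a large subunit protein at the exit tunnel, was the one family that still spanned more than 4-fold after its copies were added. It was at 1.08, 0.825 and 0.73 CPM in PWK/PhJ and at 12.4 to 38 CPM in the other 24 libraries (log2 difference -4.63 ± 0.24 SE, edgeR adjusted p = 1.28e-13). With its 12 copies summed, PWK/PhJ was at 0.923 ± 0.145 CPM and CAST/EiJ at 32.5 ± 5.01 CPM. The log2 range was 4.58 alone and 4.53 summed. Whether the low value in PWK/PhJ reflects little Rpl35 messenger RNA or its counting was not tested.

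Over all families, summing parents with copies by sequence left 1 of 77, Rpl35, with strain means more than 4-fold apart, against 19 parents alone. Rps18 was next and just under that cut, with a summed range of 3.85-fold. It ran from 38.7 ± 8.2 CPM (SD, n = 3) in WSB/EiJ to 148 ± 8.68 CPM in 129S1/SvImJ. The median log2 range of the families was 0.89. Among parents tested, 20 had fewer than 25% of the 50-base windows of their main transcript unique among annotated genes, and 9 of these spanned more than 4-fold. Among the 9 parents with 75% or more unique windows, none did, and the one with the largest range, Rps24, ran from 25.2 ± 6.25 CPM (SD, n = 3) in WSB/EiJ to 70.7 ± 6.91 CPM in CAST/EiJ. Of the 47 parents in between, 10 spanned more than 4-fold. Over the 27 libraries, which share strain and depth, the log2 level of a parent had a median correlation of 0.79 with the mean of the other parents, and 8 of 76 were above 0.9. For families summed by sequence the median was 0.95, and 62 of 77 were above 0.9. Rps13 (-0.28), Rpl9 (-0.17) and Rpl35 (-0.10) were below 0 alone. The strain effect was still called for 76 of the 77 families by edgeR (74.3% of all genes in that fit).

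**Figure D2:**
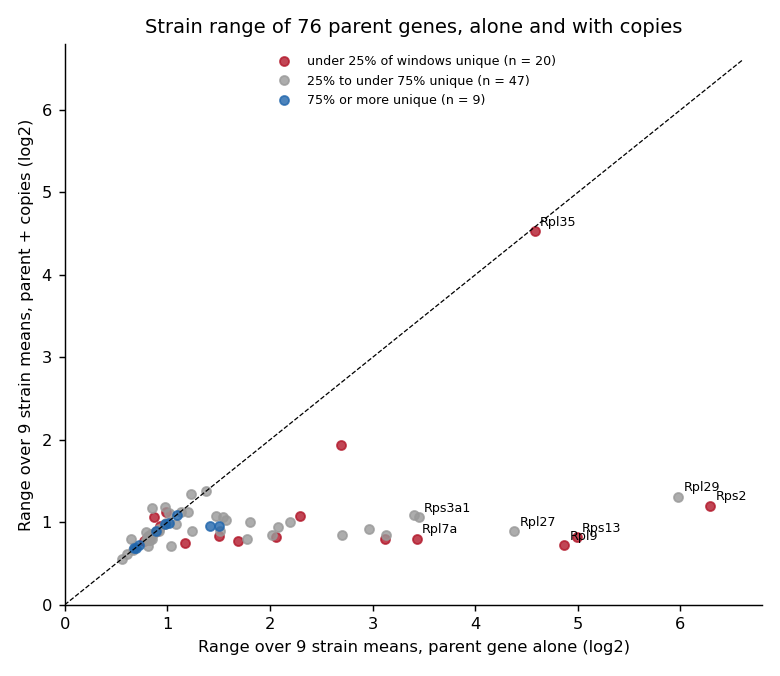
Each point is 1 of 76 parent genes, with its log2 range over 9 strain means alone (horizontal) and summed with its copies (vertical), coloured by the share of unique 50-base windows. Points far right of the dashed line of equality are families whose range fell on summing, such as Rps2 from 6.29 to 1.20, and Rpl35 stays on the line at 4.53.

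The retrocopies differed in how much of their family's counts they held, and Rpl9-ps6, described above, did so in 1 strain only. Rps27rt took the whole signal of its family. Rps27, whose product binds zinc in the small subunit, was at 0 CPM in 26 libraries and at 0.0326 CPM in the other one and did not pass the filter. Rps27rt was at 35, 29.9 and 24.1 CPM in C57BL/6J, the strain with the lowest mean. It was at 53.4, 57.6 and 42.3 CPM in CAST/EiJ, the strain with the highest, and between 22.2 and 55.6 CPM in the other 21 libraries. The C57BL/6J and CAST/EiJ libraries did not overlap. CAST/EiJ (log2 difference 0.48 ± 0.14 SE, edgeR adjusted p = 0.00768) and NZO/HlLtJ (0.42 ± 0.14, edgeR adjusted p = 0.0264) were higher than the mean of the other 8 strains. Rps27rt lies in an intron of Osbpl10 on the opposite strand, and the library kit did not mark strand. The coding sequences of Rps27 and Rps27rt are the same, and which of the 2 loci the counts came from was not tested.

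Rpl10-ps3 shared its family's signal with the X-linked parent Rpl10, a late-joining protein of the large subunit, from which its 642 coding bases do not differ. Neither row was whole in any of the 27 libraries, and which locus the counts came from was not tested. A further copy at 100% identity, Rpl10-ps1, held 5.78% (NOD/ShiLtJ) to 11.7% (NZO/HlLtJ) of the family's counts outside PWK/PhJ. In PWK/PhJ it averaged 0.0442 CPM. Rpl10-ps3 averaged 109 CPM and Rpl10 95.7 CPM over all libraries, and the retrocopy took from 47.9% ± 2.84 (WSB/EiJ) to 56.6% ± 7.18 (129S1/SvImJ) of the counts of the pair (SD, n = 3). Its values were 84.2, 57.4 and 85 CPM in WSB/EiJ and 144, 155 and 140.2 CPM in CAST/EiJ. WSB/EiJ was lower than the mean of the other 8 strains (-0.55 ± 0.16 SE on the log2 scale, edgeR adjusted p = 0.013), and CAST/EiJ (0.53 ± 0.14, edgeR adjusted p = 0.00586) and 129S1/SvImJ (0.48 ± 0.15, edgeR adjusted p = 0.0232) were higher. Rpl10 itself was called only in CAST/EiJ (0.57 ± 0.15, edgeR adjusted p = 0.00434), and whether parent and retrocopy differ in this was not tested.

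Rps12-ps3 had a smaller part beside Rps12, a protein of the small subunit beak. It was at 3.39, 2.61 and 4.51 CPM in PWK/PhJ and between 6.95 and 39.7 CPM in the other 24 libraries, with no overlap (log2 difference -2.31 ± 0.30 SE, edgeR adjusted p = 1.28e-06). It was higher in 129S1/SvImJ (21.2, 39.7 and 22.2 CPM) and CAST/EiJ (33.2, 18.6 and 29.5 CPM), with edgeR adjusted p of 0.00141 and 7.82e-04. Its share of the pair was 5.42% ± 0.964 in PWK/PhJ and 20.1% to 31.9% in the means of the other strains. None of its 50-base windows was unique. Rps12 was at 52, 57.8 and 73.1 CPM in PWK/PhJ, within the 27.9 to 82.7 CPM of the other libraries. The other 3 retrocopies, Rpl36a-ps1, Rpl9-ps1 and Rpl36-ps4, were at 0 CPM in every library after rounding. Rpl9-ps1 differs from Rpl9 by 27 substitutions and 91.3% of its windows are unique.

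**Figure D3:**
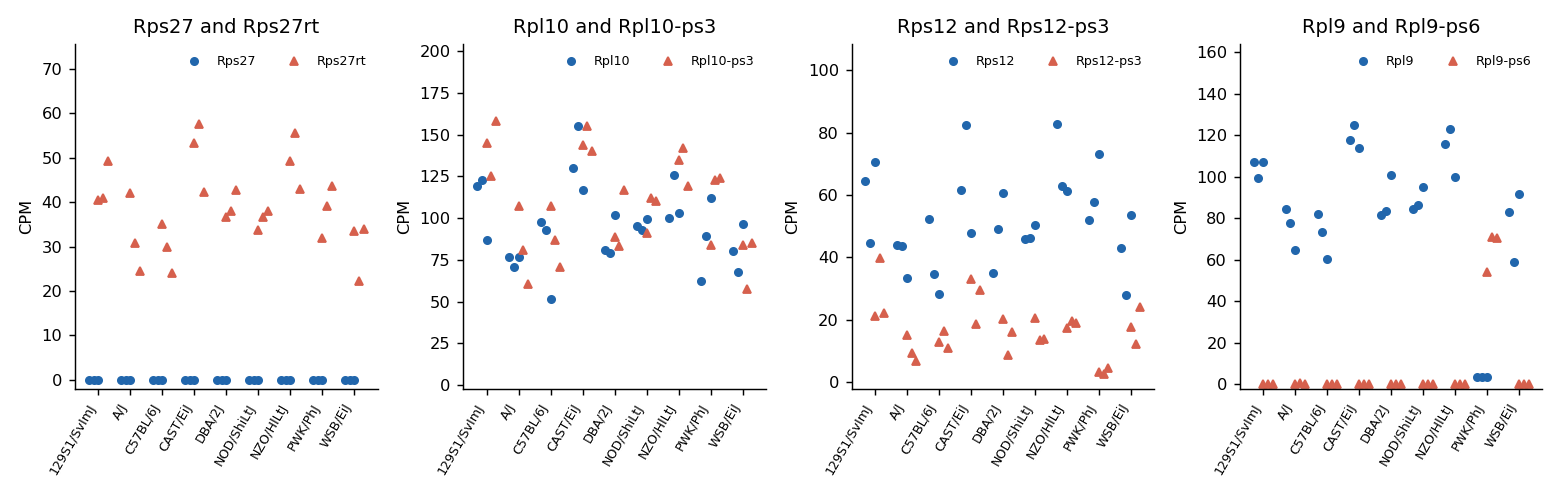
CPM of 4 parents (blue circles) and their retrocopies (red triangles) in each of 27 libraries, grouped by strain. Rps27 stays at 0 with Rps27rt between 22.2 and 57.6 CPM, Rpl10 and Rpl10-ps3 overlap, Rps12-ps3 is lowest in PWK/PhJ, and Rpl9 and Rpl9-ps6 exchange places in PWK/PhJ.

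The log2 ranges of the 4 paralogs tested were 1.52 for Rpl22l1, 0.82 for Rps27l, 0.76 for Rpl36al and 0.65 for Rpl7l1. Rpl22l1, which can take the place of Rpl22 in the large subunit, was at 23, 23.5 and 21.8 CPM in CAST/EiJ, above every library of the other strains, where it ran from 6.39 to 18.3 CPM. It was higher in CAST/EiJ by 0.99 ± 0.17 (SE) on the log2 scale (edgeR adjusted p = 5.91e-05) and lower in C57BL/6J (7.59, 9.12 and 6.39 CPM), with -0.77 ± 0.20 (edgeR adjusted p = 0.00904). Its parent Rpl22 ran from 29.9 ± 1.96 CPM (SD, n = 3) in WSB/EiJ to 49.6 ± 5.69 CPM in NZO/HlLtJ. Rpl7l1, a protein of ribosome assembly, was highest in NZO/HlLtJ at 42.9, 47.4 and 36.8 CPM (0.44 ± 0.10 SE on the log2 scale, edgeR adjusted p = 0.00284). Like the other 3 paralogs tested, it was also called higher in CAST/EiJ, at 38.6, 37.4 and 40.1 CPM. Rps27l, an Rps27 paralog whose counts were whole in every library, was at 48.2, 47.6 and 49 CPM in CAST/EiJ and between 20.3 and 47.2 CPM elsewhere (0.49 ± 0.16, edgeR adjusted p = 0.0153). Rpl36al, an Rpl36a paralog, was at 75.7, 84.2 and 70.9 CPM in CAST/EiJ (0.45 ± 0.16, edgeR adjusted p = 0.0261), and its strain effect (edgeR adjusted p = 0.0291) was lost in 4 alternative fits. The muscle paralog Rpl3l and the testis paralogs Rpl10l and Rpl39l did not pass the filter, and the highest of their strain means was 0.0614 CPM, for Rpl3l.

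The stalk genes, whose products recruit elongation factors, had log2 ranges of 0.81 to 0.99 in their own rows. Rplp0 ran from 81.6 CPM in DBA/2J to 161 CPM in PWK/PhJ, Rplp1 from 129 CPM in A/J to 224 CPM in CAST/EiJ, and Rplp2 from 39.3 CPM in A/J to 77.9 CPM in CAST/EiJ, as strain means. Summed with its 6 copies, Rplp0 was lowest in A/J (121 ± 22 CPM, SD, n = 3) and highest in CAST/EiJ (273 ± 15.3 CPM), where the parent's row held 43.1% of the counts, and its log2 range rose from 0.98 to 1.19. The ranges of Rplp1 and Rplp2 stayed at 0.81 and 0.99. The parents that varied least among those called were Rpl18, Rpl27a, Rpl7 and Rps3, with log2 ranges of 0.61 to 0.68. Rps3, which lines the messenger RNA entry of the small subunit, ran from 90.2 ± 14.1 CPM (SD, n = 3) in A/J to 144 ± 10.3 CPM in CAST/EiJ, and 97% of its 50-base windows were unique. Rpl18 was barely called (edgeR adjusted p = 0.0466) and rose above 0.05 in most of the alternative fits. The X-linked parents Rps4x, Rpl10, Rpl36a and Rpl39 were all highest in CAST/EiJ, with log2 ranges of 0.79, 0.83, 0.93 and 1.02. CAST/EiJ was the highest strain for 35 of all 76 parents tested. Per length of the union of exons, Rplp1 had the highest mean level of the parents at 349 CPM per kb, followed by Rpl4 (119), Rps15 (115) and Rpl36 (113). Per length of the longest transcript Rplp1 was still first, but Rps2 (178 CPM per kb), Rpl4 (155), Rpl19 (143) and Rps4x (138) came next. At the other end stood Rps27 (0.00116 CPM per kb), Rpl12 (2.31) and Rpl5 (2.41), 3 genes with a copy of the same coding sequence. Such a copy does not set them apart, as Rpl10, at 46.6 CPM per kb, has one too. The strain means of Rpl12 ran from 0.952 to 11.4 CPM per kb. Its copy Gm10275 held 88.3% to 95.2% of the family's counts in 7 strains, at 30.5 to 92.8 CPM. In PWK/PhJ Rpl12 itself held 73.1%, at 41.2 ± 6.56 CPM (SD, n = 3), and in WSB/EiJ the copies Gm9396 (40.4%) and Gm11425 (38.5%) held most. The copy Gm15500 of Rpl5 was at 65.8 to 139 CPM.

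Each strain was then set against the equal-weight mean of the other 8. More parents were higher than lower in CAST/EiJ (43 higher, 8 lower, of 76, beside 20.1% and 17.8% of all genes) and NZO/HlLtJ (41 and 5, beside 14.8% and 12.9%). More were lower than higher in A/J (2 higher and 33 lower, beside 15.9% and 11.6%) and WSB/EiJ (4 and 28, beside 15.5% and 9.25%). 129S1/SvImJ had 23 higher and 5 lower (10.5% and 7.86% of all genes), and PWK/PhJ 22 and 4 (19.4% and 14.8%). C57BL/6J had 9 and 10 (11.6% and 6.5%), DBA/2J 7 and 10 (9.5% and 3.78%) and NOD/ShiLtJ 10 and 6 (9.2% and 5.72%). These 9 comparisons share libraries. The counts differed once each parent was summed with its copies. CAST/EiJ then had 65 of 77 families higher and 0 lower (20% and 17.8% of all genes in that fit). NZO/HlLtJ had 44 and 0 (14.7% and 12.8%), A/J 0 and 42 (15.8% and 11.8%), WSB/EiJ 0 and 18 (15.3% and 9.15%), C57BL/6J 1 and 14 (11.5% and 6.41%) and 129S1/SvImJ 13 and 0 (10.3% and 7.81%). PWK/PhJ had 3 and 1 (19.3% and 14.5%), DBA/2J 1 and 2 (9.34% and 3.71%) and NOD/ShiLtJ 2 and 1 (8.94% and 5.66%). Where only copies that carry the parent's name were added, 129S1/SvImJ had 20 and 1 (10.4% and 7.87%), DBA/2J 2 and 8 (9.43% and 3.74%), NOD/ShiLtJ 5 and 3 (9.04% and 5.68%) and PWK/PhJ 10 and 4 (19.3% and 14.6%). The median family difference was 0.51 on the log2 scale in CAST/EiJ, 0.39 in NZO/HlLtJ and 0.31 in 129S1/SvImJ, and it was -0.41 in A/J, -0.34 in C57BL/6J and -0.33 in WSB/EiJ. In the other 3 strains it was 0.03 (PWK/PhJ), -0.02 (NOD/ShiLtJ) and -0.15 (DBA/2J).

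The mean log2 CPM of the 76 parents was between 4.95 and 5.47 in the A/J libraries, and 5.32, 4.85 and 5.49 in WSB/EiJ. It was 6.05, 6.07 and 5.84 in NZO/HlLtJ, above all of these, and 5.71, 5.86 and 5.61 in CAST/EiJ. The strain means spanned 0.78 on that scale, from A/J to NZO/HlLtJ. C57BL/6J, at 5.82, 5.47 and 5.14, spread widely enough to overlap most strains. Parents and copies together took from 0.429% ± 0.116 of all counts in A/J (SD, n = 3) to 1.04% ± 0.0826 in CAST/EiJ. Albumin alone took 18.7% in A/J, 15% in WSB/EiJ and 9.97% in CAST/EiJ. The shares of albumin in C57BL/6J (11.8%) and NZO/HlLtJ (11.3%) were close, while parents and copies took 0.505% and 1.02% there. Markers of other liver cells also moved with strain. The median log2 difference from the other 8 strains in A/J was -0.38 for the parents, 0.96 for the Kupffer markers and 0.76 for the 9 stellate cell markers. In CAST/EiJ these medians were 0.43, -1.05 and -0.98, and in NZO/HlLtJ 0.37, -0.69 and -0.91. In 129S1/SvImJ the parents' median was 0.32 and that of the stellate markers -0.23, and 0 of 11 Kupffer markers were above the other strains. The 3 medians were -0.29, 1.31 and 0.08 in C57BL/6J and -0.13, 0.05 and 0.15 in DBA/2J. In these 6 strains both marker lists had the opposite sign to the parents. The median of the 10 endothelial markers did so in CAST/EiJ (-0.31), NZO/HlLtJ (-1.17), 129S1/SvImJ (-0.41), C57BL/6J (0.67) and, near 0, A/J (0.02). It had the sign of the parents in DBA/2J (-0.50), PWK/PhJ (1.61), WSB/EiJ (-0.02) and NOD/ShiLtJ (-0.04). PWK/PhJ had the same sign throughout (0.14, 1.19 and 0.49), and in WSB/EiJ (-0.34, -0.28 and 0.45) the Kupffer markers had the sign of the parents and the stellate markers did not. In NOD/ShiLtJ the parents' median was -0.02, with -0.55 for the Kupffer markers. The median of the 10 hepatocyte markers had the opposite sign to that of the parents in all 9 strains. It was 0.64 in A/J, with 6 of 10 above the other strains, 0.64 in WSB/EiJ, with 10 of 10, and -0.37 in NZO/HlLtJ, where 1 of 10 was. In the other 6 strains it lay between -0.09 and 0.14. The summed endothelial markers were lowest in NZO/HlLtJ (85 CPM). In PWK/PhJ they were at 826, 250.4 and 289.6 CPM and the Kupffer markers at 449.9, 154 and 154 CPM, so that replicate 1, which also had the lowest parent level of that strain (5.55), stood apart. With the Kupffer and endothelial levels as covariates, the parents called fell to 16 in NZO/HlLtJ, 10 in C57BL/6J and 18 in 129S1/SvImJ and rose to 45 in PWK/PhJ. The share of all genes called in that fit is not given here. Whether these moves are particular to the parents was therefore not tested. The part of stellate cells and of the hepatocyte markers, albumin included, in the strain differences was not tested. Without C57BL/6J replicate 1 the count for C57BL/6J rose from 19 to 46, and it was 31 without PWK/PhJ replicate 1 and 35 without WSB/EiJ replicate 3. It was 12 without C57BL/6J replicate 2 or 4. Counts also fell without A/J replicate 2 (16) or 3 (14), CAST/EiJ replicate 4 (31), NZO/HlLtJ replicate 1 or 2 (20 each), WSB/EiJ replicate 3 (15) and any 129S1/SvImJ library (15 or 16). The share of all genes called without each library is not given here either. These counts therefore do not say whether the parents moved more than other genes.

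**Figure D4:**
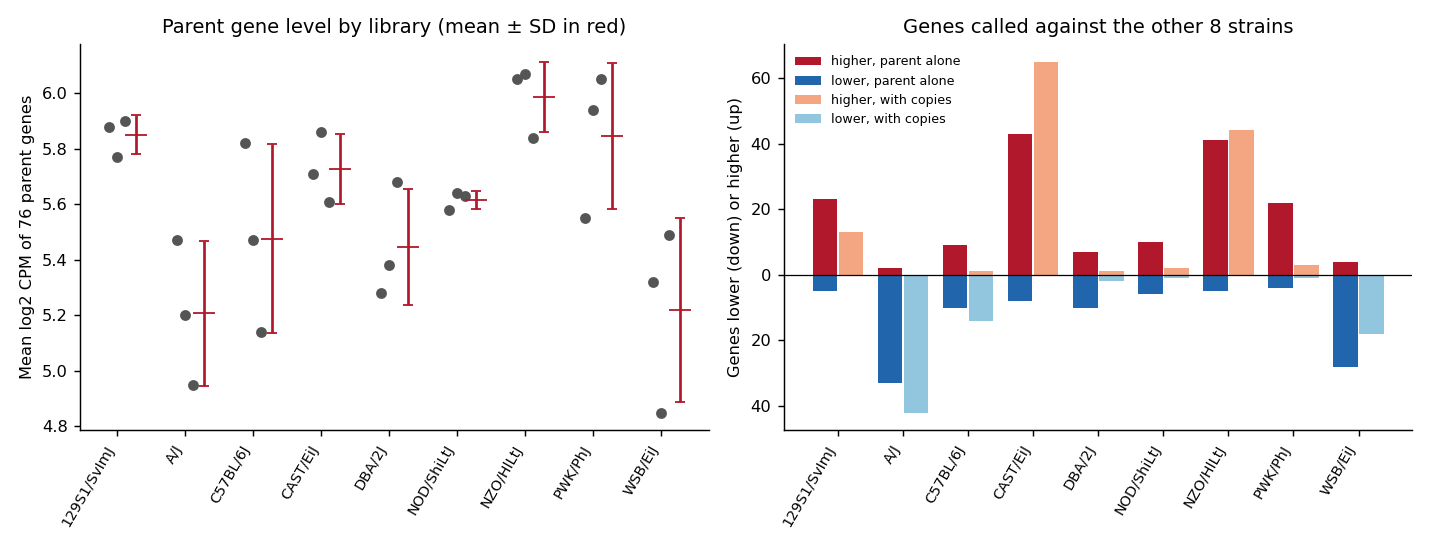
Left, the mean log2 CPM of 76 parent genes in each library (grey), with the strain mean ± SD in red (n = 3). Right, the number of parents called higher (up) or lower (down) than the mean of the other 8 strains, alone and summed with copies: CAST/EiJ goes from 43 and 8 to 65 and 0, and PWK/PhJ from 22 and 4 to 3 and 1.

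Other genes of the pathway were counted in the same way. Fau, which encodes a ubiquitin-like fusion with a small subunit protein, and the scaffold Rack1 were both called among the strains. Fau ran from 11.5 ± 4.7 CPM (SD, n = 3) in C57BL/6J to 114 ± 20.9 CPM in PWK/PhJ, with counts that were not whole in all 27 libraries. Of 77 mitochondrial ribosomal protein genes 68 were called (88.3%, beside 74.2% of all genes tested). Their median log2 range was 0.78, beside 1.03 for the cytosolic parents alone and 0.89 for their families. In A/J 36 of the 77 were lower and 0 higher, beside 11.6% and 15.9% of all genes, and in CAST/EiJ 27 were higher and 2 lower, beside 20.1% and 17.8%. Of 21 translation factors with a pyrimidine-rich start 18 were called (85.7%, beside the same 74.2%). They were led by Pabpc4 (18 ± 2.24 CPM in NOD/ShiLtJ to 45.5 ± 3.83 CPM in CAST/EiJ). Of the 21, 11 were higher in CAST/EiJ, beside the same 20.1%. Of 38 ribosome biogenesis genes 19 were called, below the 74.2% of all genes, with 13 higher in CAST/EiJ (again beside 20.1%), among them Heatr1 at 24.4 ± 0.941 CPM. Of 13 genes that regulate translation of messages with a pyrimidine-rich start 7 were called (53.8%, also below 74.2%). Among them was Rptor, a subunit of mTOR complex 1, at 28.6 ± 1.33 CPM in CAST/EiJ and 49.2 ± 1 CPM in WSB/EiJ.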

How the data were processed

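RNA-seq libraries were made with an unstranded poly(A) kit, per the labels' protocols. The authors deposited estimated counts, per Ensembl gene and library, made from the reads by a counting step that the file header does not name, not normalized and often not whole. The submitters' processing notes name FastQC 0.11.5, DESeq2, GRCm38 and mm10; the aligner, the counter and the genome sequence used for each strain are not given in the sources used here. Of the 43346 rows, 42462 matched GENCODE M21. Counts were rounded, filtered (filterByExpr), scaled by TMM and fitted over all 27 libraries with strain as the only term in edgeR 4.0.16 (R 4.3.3), with prior count 2 for log2 CPM. DESeq2 1.42.0 was an alternative. The fit was tested on simulated counts. Copies were assigned with blastn 2.17.0, and coding sequences were aligned with Biopython 1.88.

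Genes named are the retrocopies and paralogs tested with their parents, the 8 largest and 4 smallest strain ranges among parents called, X-linked parents, the 4 highest and 3 lowest per kb, and the leading genes of other lists; copies are named where a strain mean reached 5 CPM. Rps18, Rps21, Rps24, Rpl19, Rpl22, Rplp0 and Rplp2 are named outside this rule, after their values were seen. Members and lists were chosen with earlier results of these data known. P-values rest on the spread between 3 libraries a strain.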

Additional observations from a re-analysis of the deposited data

How the results depend on the processing

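Depth limits the rows at or near 0. The strain effect kept its count of parents within 1.5 times under 11 alternatives (69 to 76) and on leaving out each of 27 libraries (72 to 76). Under 9 alternatives and each left-out library the same held for mitochondrial genes (57 to 73). The range of the parents' mean was 0.74 to 0.92 on leaving out a library. Parents called against the other 8 strains moved by over 1.5 times as follows, with the replicate block given after; the cause was not tested, except that summing replaces each row by its family. With Kupffer and endothelial covariates they numbered 18 in 129S1/SvImJ, 10 in C57BL/6J, 16 in NZO/HlLtJ and 45 in PWK/PhJ. DESeq2 gave 33 in C57BL/6J, and removing the length trend 21 in A/J. Summing by sequence gave 13 in 129S1/SvImJ, 3 in DBA/2J, 3 in NOD/ShiLtJ, 4 in PWK/PhJ and 18 in WSB/EiJ, and summing by name 10 in DBA/2J, 8 in NOD/ShiLtJ and 14 in PWK/PhJ; both sums in these comparisons, and all sums by sequence, were chosen after seeing the data. Leaving out 1 library gave 15 to 37 in 129S1/SvImJ, 14 to 49 in A/J, 12 to 46 in C57BL/6J, 31 to 56 in CAST/EiJ, 14 to 19 in DBA/2J, 11 to 16 in NOD/ShiLtJ, 20 to 53 in NZO/HlLtJ, 24 to 29 in PWK/PhJ and 15 to 38 in WSB/EiJ. Except for the sums, the share of all genes called in these fits is not given here. Whether the moves are particular to the parents was not tested.

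The replicate numbers did not pair the libraries. Libraries of the same number had a mean correlation of their deviations of 0.01 over 76 pairs, with 17 over 0.1. Libraries of different numbers had a mean of -0.003 over 248 pairs, with 44 over 0.1. With the number as a block, 73 parents were called for the strain effect, 23 in A/J and 22 in CAST/EiJ against the other strains. Of the tested members that the naming rule chose, leaving out Rpl9-ps6, 25 were called under every alternative and Rpl18, Rpl10, Rpl36, Rpl36al and Rps12 lost the call in 1 or more.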
